A study of Mus musculus with 13 samples.

Results

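The Mpo-positive granulocyte-monocyte progenitors described here were 95 of the 3093 single cells with at least 200 detected genes in a library of F4/80+ cells from mouse fetal liver, which held 3096 barcodes. Each gene's count was scaled to counts per 10000 of the cell's total. A cell was taken as a member when Mpo, Elane and Prtn3 together reached 20 per 10000, S100a8 and S100a9 together stayed under 50 and the complement genes C1qa, C1qb and C1qc together stayed under 10. The 95 cells were 3.07% of the library (Wilson 95% interval 2.52 to 3.74%). The cells were thus selected on measured values of these genes, so every single-cell value is a description without a test, and tests are given only for bulk libraries, whose values the rule does not use.

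Granulocyte-monocyte progenitors are bone marrow or fetal liver cells that give rise to neutrophils and monocytes. At the promyelocyte step their descendants make the primary (azurophil) granules, which are packed with myeloperoxidase (Mpo) and with the serine proteases neutrophil elastase (Elane), proteinase 3 (Prtn3) and cathepsin G (Ctsg). Later steps fill other granules with lactoferrin (Ltf) and cathelicidin (Camp), and mature cells carry large amounts of the calprotectin subunits S100a8 and S100a9. Irf8 and Klf4 are transcription factors of the monocyte branch, whereas Cebpe and Gfi1 are factors of the granulocyte branch. Gata2 is used in stem cells and in mast cells and basophils.

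The study asked what EKLF (Klf1), a transcription factor of red cells, does in the F4/80+ macrophages of the erythroblastic island. All samples were E13.5 fetal liver, and the labels give the strain as C57BL/6 throughout, although the methods place the EKLF-null line on a 129S4/SvJae background. The single-cell library came from wild-type littermates that were pooled, with cells bound by F4/80 beads. The 12 bulk libraries of sorted F4/80+ cells formed 4 groups of 3, namely EKLF+/+ (wild type), EKLF-/- (null), and the GFP-positive (EKLF/GFP+) and GFP-negative (EKLF/GFP-) cells of wild-type embryos carrying a GFP reporter driven by the EKLF promoter (pEKLF-GFP). The methods call the bulk samples biological triplicates without saying which embryos each came from, so p-values measure the spread between these libraries.

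Elane and Prtn3 lie side by side on chromosome 10, and the DNA just upstream of each is shown because these granule genes define the cells and moved together in the bulk libraries. In the GENCODE annotation of GRCm38, Prtn3 (chr10:79874476-79883174) and Elane (chr10:79886247-79888215) are both on the plus strand with 3072 bases between them. Below are the 200 bases before the start site that RefSeq gives for each gene in GRCm38.p6, chr10:79886112-79886311 for Elane and chr10:79879467-79879666 for Prtn3, plus strand, 5′ to 3′. For both genes the RefSeq start lies inside the longer GENCODE gene, so that the end of the Elane window, with its AACGG match, and the whole Prtn3 window are within the annotated genes. Capitals mark GAGGAA, the core that PU.1 (Spi1) binds, and AACGG, the core that MYB binds.
Elane: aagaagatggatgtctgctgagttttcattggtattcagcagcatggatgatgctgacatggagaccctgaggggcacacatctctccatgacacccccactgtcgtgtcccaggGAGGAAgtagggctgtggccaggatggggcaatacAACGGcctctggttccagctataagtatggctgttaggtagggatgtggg
Prtn3: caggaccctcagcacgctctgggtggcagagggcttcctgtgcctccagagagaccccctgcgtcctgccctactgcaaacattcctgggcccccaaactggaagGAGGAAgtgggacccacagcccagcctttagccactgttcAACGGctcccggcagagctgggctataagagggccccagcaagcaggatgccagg

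In the Elane window GAGGAA began 85 bases and AACGG 50 bases before the start site, and in the Prtn3 window they began 95 and 55 bases before it. Both strands of 32851 promoters were searched in windows of the same length. GAGGAA was in 19.0% of them, AACGG in 12% and both in 2.20%. Of the other primary granule genes searched, the Ctsg window held the RUNX core TGTGGT 79 bases before the start, a match that 11.2% of promoters have. No match to these motifs or to the C/EBP pattern TTGCNNAA, found in 7.47% of promoters, was in the Mpo or Ms4a3 window. A match only describes the letters, and binding was not measured.

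The members were deeply sampled. Their median total was 36633 counts (4026 to 110019) with 5734 genes detected, and mitochondrial genes held a median of 3.85% of counts. The rest of the library was split by genes into 228 calprotectin-high cells (median total 18399), 121 Ly6c2/Ccr2 cells (22478, Ly6c2 and Ccr2 together at 5 per 10000 or more, with Ccr2 at 7.97 and Ly6c2 at 0.905 when pooled), 1663 C1q cells (14099) and 986 remaining cells (24565), in which the alpha globin gene Hba-a1 was at 560 per 10000 when pooled. Doublets were not removed, and 90 members were left without those above 2 times the median total.

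The summed level of Mpo, Elane and Prtn3 had a median of 60.2 per 10000 over the members and reached 340.3 in the highest. The 3 members nearest the limit had 20.5, 20.9 and 21.0, and the 3 nearest cells outside it had 19.9, 19.6 and 19.6. Of 212 cells that reached 20 per 10000, 114 were left out for S100a8 and S100a9 and 5 for C1q genes, of which 2 failed both. Calprotectin divided the Mpo-positive cells along a continuous range, since the highest member had 48.0 per 10000 and the lowest cell left out had 50.5. Most members were far from that limit, with a median of 1.87 and with 10 of 95 at or above 20.

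**Figure D1:**
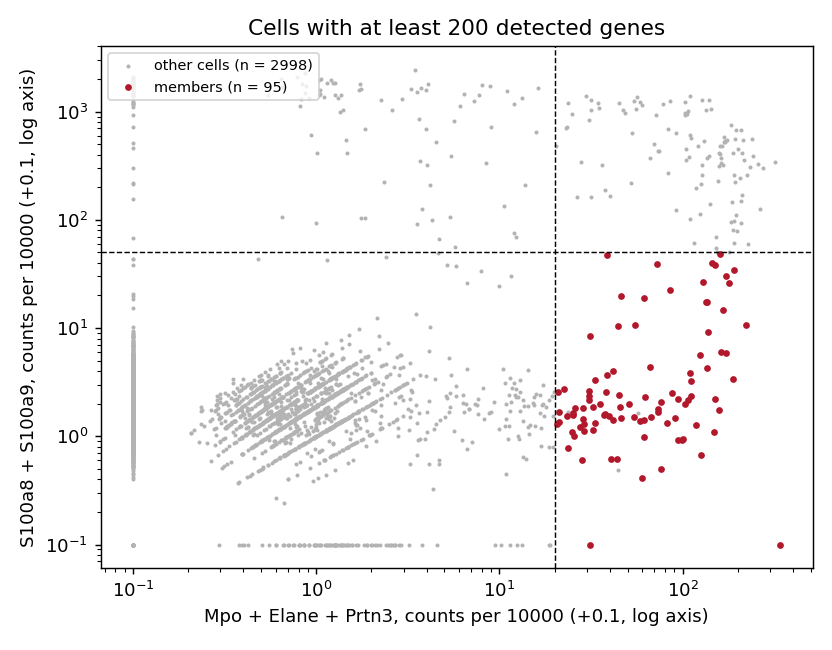
Each point is a single cell, with counts of Mpo, Elane and Prtn3 per 10000 on the horizontal axis and counts of S100a8 and S100a9 per 10000 on the vertical axis, both on log scales after adding 0.1, and dashed lines at the limits of 20 and 50. The 95 members, in red, fill the lower right part, with the 114 Mpo-positive cells left out for calprotectin above them.

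Mpo, the heme enzyme that makes hypochlorous acid, was at 41.9 per 10000 in the pooled members (exact Poisson 95% interval 41.2 to 42.5). Single members ranged from 12.3 to 253.3, with quartiles of 19.9 and 62.6. The calprotectin-high cells had 34.4, the Ly6c2/Ccr2 cells 2.23, the C1q cells 0.457 and the remaining cells 0.721. These intervals, like all those given for single-cell values, cover counting error only.

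Prtn3 was in every member at a pooled 26.6 per 10000 (26.1 to 27.1), between 0.291 and 82.0 in single cells. Elane was less even. Its pooled level was 6.98 (6.72 to 7.26), but 67 of 95 members had a count (70.5%, exact 95% interval 60.3 to 79.4%), the median cell had 1.88, and the 5 highest cells held 30.6% of all its counts. After thinning every cell to 5000 counts, which left out 1 shallower member, 50% of members and 3.84% of the remaining cells had an Elane count. Ctsg, which the selection did not use, had 6.16 per 10000 (5.91 to 6.41) in the members and 0.0129 in the remaining cells, and 51.1% against 0.726% of cells had a count after thinning. Elane and Prtn3 were higher still in the calprotectin-high cells, at 21.3 and 40.1, whereas Ctsg was at 5.78 there.

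The granule list had 12 genes. Together they reached 113 per 10000 in the members, 177 in calprotectin-high cells, 47.4 in Ly6c2/Ccr2 cells, 22.1 in C1q cells and 5.32 in remaining cells, and 4 of the 12 (Mpo, Ctsg, Srgn and Cst7) were highest in the members. Serglycin (Srgn), the proteoglycan core that holds proteases in granules, had 12 per 10000 (11.7 to 12.4) and a count in 94 of 95 members. Without the Gata2 and eosinophil granule members described further on, Srgn was at 9.82, under the 11.4 of calprotectin-high cells. Lysozyme (Lyz2) had 8.72 in the members against 48.5 in calprotectin-high and 30.7 in Ly6c2/Ccr2 cells. Prss57, another serine protease of these granules, had 0.506 against 2.03 in calprotectin-high cells. Cathepsin C (Ctsc), which trims the proteases into their active forms, was at 2.88 and highest in Ly6c2/Ccr2 cells, at 8.51. Bpi, the bactericidal permeability protein, had no count in the 95 members, which allows up to 0.00795 per 10000 (3 counts of the summed total).

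Genes of later granules were nearly absent from the members. Ltf was at 0.0106 per 10000 against 12 in calprotectin-high cells, Camp at 0.260 against 101, Ngp at 0.0874 against 48.3 and Lcn2 at 0.0636 against 21.3. The list of 18 later granule and neutrophil genes summed to 10.4 in the members and 914 in calprotectin-high cells, a gap that the selection on S100a8 and S100a9 partly set. Haptoglobin (Hp) at 2.24, Fcnb at 0.556 and Olfm4 at 0.350 were the members' highest genes of that list other than S100a8 and S100a9. Chil3, Itgb2l and Padi4 had no count.

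The label was checked against markers outside the rule. Plac8, a gene of myeloid progenitors, was in all 95 members at 17.9 per 10000 (17.5 to 18.3), against 11.3 in calprotectin-high, 12.7 in Ly6c2/Ccr2, 0.927 in C1q and 1.24 in remaining cells. After thinning, Plac8 was counted in 98.9% of members and Srgn in 88.3%, against 16.5% and 23.5% of remaining cells. CD34, a surface protein of early progenitors, had 1.90 per 10000 and a count in 87 of 95 members, with 3.27 in Ly6c2/Ccr2 cells and 0.293 in calprotectin-high cells. Kit, the stem cell factor receptor of the classical progenitor gate, was low at 0.371, with a count in 54 of 95 members. Of the 12 progenitor genes 3 were highest in the members, and the list summed to 28 per 10000 there and 25.9 in calprotectin-high cells, where Ms4a3 (6.22 against 2.62) and Nkg7 (1.53 against 1.01) were higher. Outside the rule genes, the members thus carried Srgn, Plac8 and Cd34 with little Kit. A minority described further on also carried genes of mast cells, basophils or eosinophils.

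F4/80 itself (Adgre1), the antigen of the bead selection, was at 0.344 per 10000 (0.288 to 0.409) in the members against 5.23 in C1q cells. Thinned cells had an Adgre1 count in 20.2% of members, 13.9% of remaining cells and 84.7% of C1q cells. Klf1, the gene the study is about, was at 0.0662 per 10000 (0.0429 to 0.0978), with a count in 11 of 95 members (11.6%, exact 95% interval 5.92 to 19.8%). The C1q cells had 0.0600 and the remaining cells 0.939. In the members 5 cells held 76% of the Klf1 counts, and the level was 0.0271 without members above 2 times the median total and 0.0391 as a mean over cells. After thinning, a Klf1 count was in 2.13% of members, 1.90% of C1q cells and 28.6% of remaining cells. Hba-a1, an alpha globin gene, was counted in every member at 6.75 to 20.7 per 10000. Its pooled 11.6 was near the 14.9 of calprotectin-high cells, with 67.1 in C1q cells and 560 in remaining cells.

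**Figure D2:**
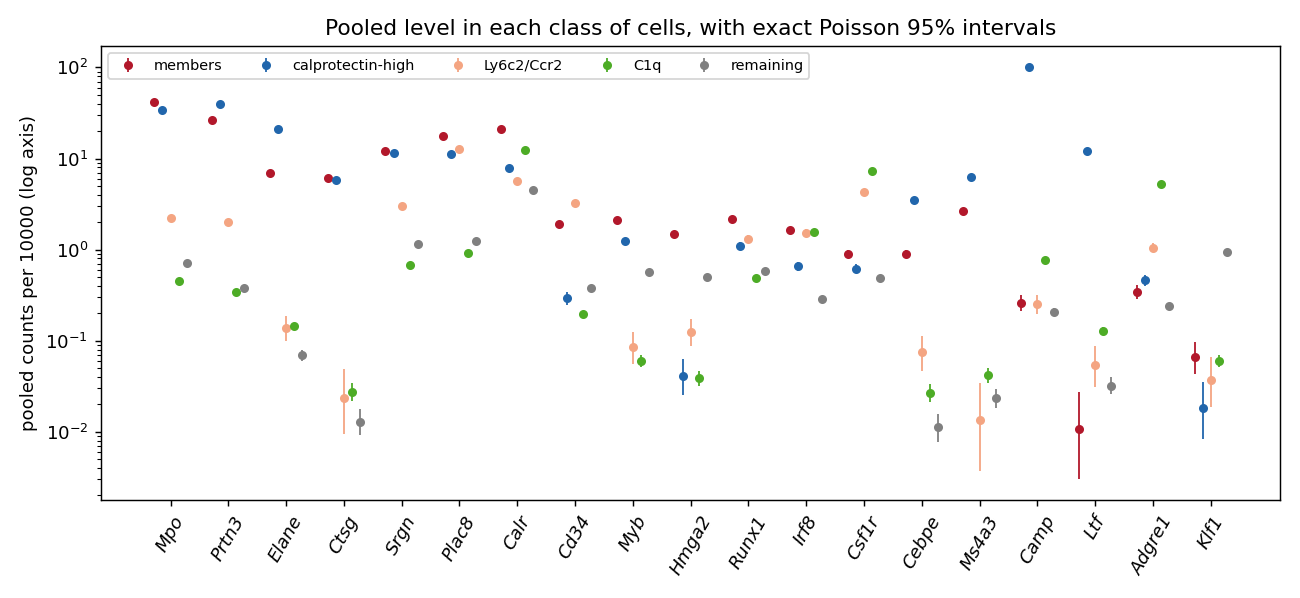
Pooled counts per 10000 on a log axis for 19 genes in the 5 classes of cells, with exact Poisson 95% intervals as bars. The members share high Mpo, Prtn3 and Ctsg with calprotectin-high cells, have far less Camp and Ltf (0.260 and 0.0106 against 101 and 12), and have 1.48 per 10000 of Hmga2 against 0.499 or less elsewhere.

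Outside the rule genes, 1411 genes had at least 1 per 10000 in the members and a count in at least 25% of them, and the 20 with the highest ratio to all other cells spanned ratios of 16.7 to 4.69. The highest were Hdc (16.7), the enzyme that makes histamine, Ctsg (13.9), the glutamate receptor subunit Gria3 (11.8), the mast cell carboxypeptidase Cpa3 (10.7) and Ramp1 (9.76), a partner of the calcitonin-like receptor. Gria3 and Ramp1 were spread over the cells, in 83 and 90 of 95 members, whereas the 5 highest members held 43.4% of the Hdc counts, 63.6% of those of Cpa3 and 71.7% of those of Ifitm1. Hmga2, a chromatin protein of fetal progenitors, had a ratio of 6.17, and Myb, a factor of proliferating progenitors, 5.74. Hmga2 was at 1.48 per 10000 in members, 0.0410 in calprotectin-high, 0.125 in Ly6c2/Ccr2, 0.0386 in C1q and 0.499 in remaining cells. Alas1, which starts heme synthesis outside red cells, was twentieth at 4.69, with 1.42 per 10000 in members and 2.54 in calprotectin-high cells. Ifitm1, Glipr1, Plac8, Nkg7, Srgn, Atp8b4, B4galnt1, Emb, Ms4a3, Serpinb1a, Fut8 and Ly6c2 made up the rest of the 20. Of these, Nkg7, Atp8b4, B4galnt1, Ms4a3, Serpinb1a and Ly6c2 had higher pooled levels in calprotectin-high cells than in the members, for example 4.44 against 1.97 for Serpinb1a.

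Among 16 myeloid transcription factors, 6 were highest in the members. Spi1, which encodes PU.1, was at 2.28 per 10000, against 3.04, 3.16 and 2.85 in the calprotectin-high, Ly6c2/Ccr2 and C1q cells. Runx1 was at 2.15 and Myb at 2.09, and both were lower in every other class. Cebpa, which drives entry into the granulocyte-monocyte path, was at 0.342 against 0.0881 in calprotectin-high cells. Cebpe ran the other way, at 0.898 in members and 3.53 in calprotectin-high cells, as did Gfi1 at 0.164 and 0.576. Irf8 was at 1.63, close to the 1.53 and 1.58 of Ly6c2/Ccr2 and C1q cells. Of the receptors, the M-CSF receptor Csf1r was at 0.895 against 7.21 in C1q cells, the G-CSF receptor Csf3r at 0.305 against 0.666 in calprotectin-high cells, and the shared beta chain Csf2rb at 1.02 against 1.01 in those cells.

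Genes of the endoplasmic reticulum, where granule proteins fold, were high in the members. Calreticulin (Calr), which binds newly made Mpo, was at 21.3 per 10000 (20.9 to 21.8), against 12.5 in C1q cells, 7.80 in calprotectin-high, 5.71 in Ly6c2/Ccr2 and 4.52 in remaining cells. Of 16 folding genes 7 were highest in the members, and the list summed to 78.0 there and 74.2 in C1q cells, 43.3 or less elsewhere. The chaperones Hsp90b1 and Hspa5 had 11.1 and 8.67 in members and 12.2 and 9.69 in C1q cells. The phagocyte NADPH oxidase list of 6 genes was lower in members, at 16.9, than in calprotectin-high cells, at 39.0, with its membrane subunit Cyba at 7.65 against 15.2. Proliferation genes were within the range of the other classes. S phase genes summed to 19.9 (15.2 to 22.6 in the other classes) and G2 and M phase genes to 26.7 (21.2 to 32.3).

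The members were not uniform. With limits set after the values were seen, 9 members had Gata2 at 5 per 10000 or more, 4 of the rest had the eosinophil granule genes Epx, Prg2 and Prg3 together at 5 or more, and the other 82 were divided by Irf8 (2 or more) and Cebpe (1 or more). This gave 30 members with Irf8 (31.6%, exact 95% interval 22.4 to 41.9%), 24 with Cebpe (25.3%, 16.9 to 35.2%), 2 with both and 26 with neither at its limit. The Gata2 limit was applied first, and 1 of the 9 Gata2 members also reached the eosinophil granule limit, at 8.60. Irf8 and Cebpe formed ranges and not types, as 24 members had Irf8 between 1 and 3 and 20 had Cebpe between 0.5 and 1.5. Gata2 was more separate, at 5.6 to 13.1 in the 9 members and at 3.64 and 1.25 in the next highest cells. Median totals were 40062 for Cebpe, 34404 for Irf8, 38399 for neither, 21937 for Gata2 and 34580 for the eosinophil granule members.

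Among those 82, Mpo and the serine proteases had higher medians in the Cebpe members. Median Mpo was 65.7 per 10000 there, against 24.1 in Irf8 members and 25.1 in those with neither. Elane was at 13.6 against 1.27 and 0.440, and Ctsg at 14.4 against 0.393 and 1.26. Ms4a3, a membrane protein of this lineage, had a median of 7.10 in Cebpe members and 0 in both of the others. Calr followed, with 31.3 against 9.99 and 15.9, as did Alas1 with 3.24 against 0.256 and 0.441. Ctsc and Lyz2 of the same granule list ran the other way, with medians of 0.740 and 3.06 in Cebpe members and 5.23 and 6.95 in Irf8 members. S100a8, which the rule limits, had a median of 2.18 in Cebpe, 1.04 in Irf8 and 0.903 in members with neither, and reached 45.9, 38.5 and 44.3 in single cells.

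Several monocyte genes had higher medians in Irf8 than in Cebpe members. Median F13a1, a coagulation factor subunit of monocytes, was 3.79 per 10000 against 0.661 in Cebpe members, Ms4a6c was 2.11 against 0.510 and Csf1r 1.36 against 0.354. Klf4 had a count in 26 of 30 Irf8 members and 7 of 24 Cebpe members. None of the 30 Irf8 members had a Cpa3 count. The 26 members under both limits, of which 17 had an Irf8 count and 8 a Cebpe count, had higher medians of Cd34 than Cebpe and Irf8 members, 2.75 against 1.37 and 2.07, and of Hmga2, 1.44 against 0.576 and 0, while Ctsc was at 0.612 and Csf1r at 0.399.

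The 9 Gata2 members met the rule through Mpo, at a median of 27.4 per 10000, with little of the proteases. Median Elane and Ctsg were 0 and Prtn3 was 1.26. They carried genes of the mast cell and basophil list, but not all 6. Fcer1a had a count in 1 of the 9 and Prss34 in 4 of 9, both with a median of 0. Cpa3 was in all 9 at 0.187 to 38.1 (median 8.84), the IgE receptor chain Ms4a2 in 8 of 9 and in 1 other member, and Mcpt8, a basophil protease, in 6 of 9. Hdc had a median of 10.4, Srgn of 34.2, Runx1 of 9.57 and Cd63 of 20.2, the last against 6.23 in Cebpe members. Ifitm1 reached 129 per 10000, with a median of 65.4 against 0 in Cebpe and Irf8 members. Neither Irf8 nor Csf3r had a count in any of the 9. By these genes the Gata2 members go against the label of granulocyte-monocyte progenitor, and they are called here by Gata2 alone.

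In the 4 eosinophil granule members Mpo had a median of 78.4 per 10000, with Prg2, the major basic protein, at 20.8, eosinophil peroxidase (Epx) at 13.8 and Prg3 at 9.45. The 4 cells were uneven, with Prg2 from 1.09 to 79.0 and Epx from 1.46 to 29.2. The lowest sum of the 3 genes was 5.095, just above the limit of 5. When pooled, the eosinophil list was at 2.085 in all members and 2.155 in calprotectin-high cells. Elane was at 2.91, Cebpe at 3.93 and Cd63 at 25.7. Without the Gata2 and eosinophil granule members, 82 cells remained, an alternative chosen after the data were seen.

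**Figure D3:**
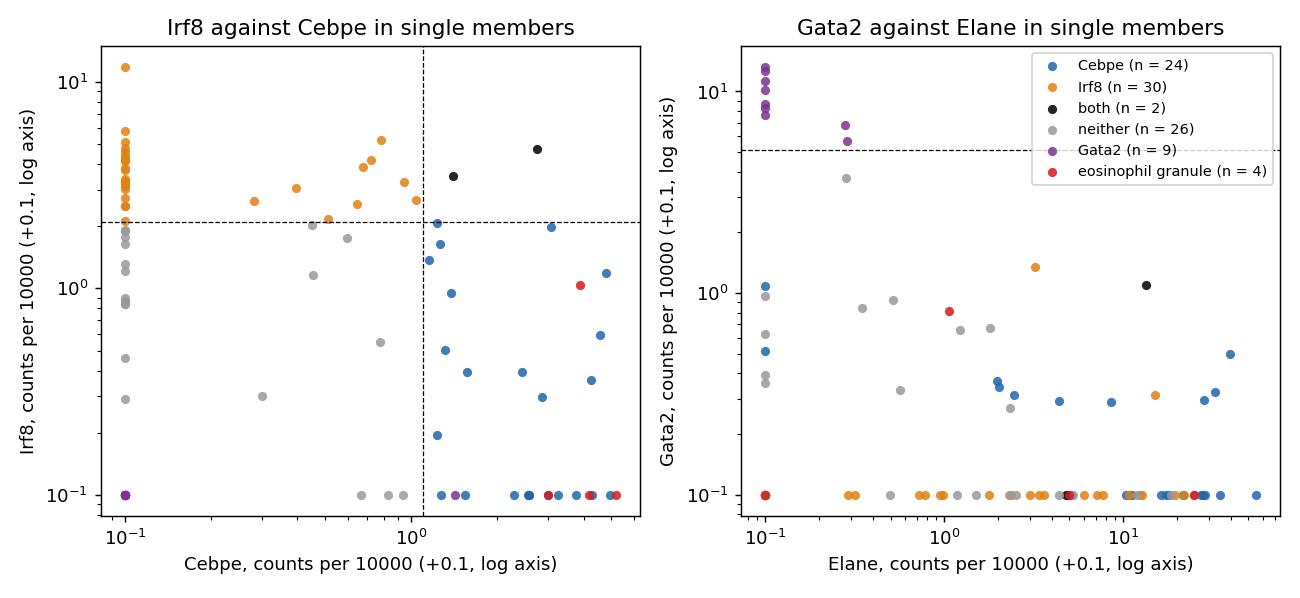
Levels in the 95 single members as counts per 10000, Irf8 against Cebpe on the left and Gata2 against Elane on the right, coloured by kind with dashed lines at the limits. Cells with both Irf8 and Cebpe above the limits are few (2 of 82), and the 9 Gata2 members stand apart at 5.6 or more.

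Across the 95 members of this library, which differ in depth, Elane and Prtn3 had a Spearman rho of 0.84, Mpo and Ms4a3 of 0.76, Mpo and Calr of 0.78, and Mpo and Cebpe of 0.71. Irf8 had rho of 0.64 with F13a1, 0.61 with Csf1r and 0.58 with Klf4, and of −0.31 with Cebpe and −0.67 with Hdc. Gata2 had rho of 0.62 with Cpa3 and −0.49 with Irf8, and Ifitm1 of −0.66 with Prtn3. Mpo, Elane and Prtn3 formed the sum that admitted the cells, so the values with these genes are shaped by the rule. Those of Gata2 and Ifitm1 include the 9 Gata2 members. The rho of the genes named here with the cell total lay between −0.11 and 0.15.

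The bulk libraries carry RNA of all F4/80+ sorted cells, so fewer cells of a type and less RNA per cell cannot be told apart. Sequencing depth was 10695514 to 15362161 reads on genes in the EKLF+/+ and EKLF-/- libraries and 22723199 to 28736342 in the reporter libraries. Klf1, the targeted gene, was at 762, 834 and 741 normalized counts in EKLF-/- libraries and 4704, 3954 and 4877 in EKLF+/+ libraries. The groups did not overlap (log2 difference −2.53, edgeR quasi-likelihood adjusted p = 7.22e-06), and whether the counted reads lie in the deleted part was not checked. Adgre1 did not pass the test in either comparison, with log2 differences of 0.12 for the knockout (adjusted p = 0.604) and 0.21 for the reporter (adjusted p = 0.679). In EKLF-/- libraries 20.3% of 12753 genes tested were called at an adjusted p under 0.05, 9.72% higher and 10.6% lower.

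Of the granule genes that define the members, Elane and Prtn3 rose in EKLF-/- F4/80+ cells and Mpo did not pass the test. Elane had 3863, 13326 and 5541 normalized counts in the EKLF-/- libraries and 2124, 1745 and 1594 in the EKLF+/+ libraries. The groups did not overlap, although EKLF-/- replicate 2 stood far above the other two (log2 difference 2.06 ± 0.41 SE, n = 3 libraries each, edgeR adjusted p = 0.0119). Prtn3 showed the same order, with 7440, 18681 and 9898 against 4633, 4816 and 3896 (1.43 ± 0.30, adjusted p = 0.0154). Prss57 had 692.8, 1398 and 795.2 against 314.2, 330.3 and 262.8, again without overlap (1.67 ± 0.26, adjusted p = 0.004). Ctsg had 2816, 7348 and 3088 against 2028, 1428 and 1891 (1.31 ± 0.35, adjusted p = 0.0333). Mpo itself did not pass the test, with 52527, 96527 and 59979 against 47058, 55503 and 38589, and its groups overlapped (0.57 ± 0.24, adjusted p = 0.118).

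Of the 11 granule genes tested 9 rose and none fell, beside 9.72% of all genes higher, and their median log2 difference was 1.01 against 0.02 over all genes. Srgn (1.01), Serpinb1a (1.10), Cd63 (0.88), Ctsc (0.86) and Lyz2 (0.79) were the other 5 that rose. Cst7, an inhibitor of cathepsin C, had 0.88 with an adjusted p of 0.065. Bpi was below the filter of 10 counts in 3 libraries. Without EKLF-/- replicate 2 the median was 0.70 and 9 of the 11 still rose. The count fell to 4, 2 and 2 when EKLF+/+ replicate 1, 2 or 3 was left out, with the largest adjusted p of Elane 0.064 and of Prtn3 0.0742, both without EKLF+/+ replicate 3, while all genes called fell from 2595 to between 922 and 1026. In these fits 346 of 12604, 417 of 12524 and 370 of 12584 genes were higher, and 576, 609 and 632 lower. Without EKLF-/- replicate 3, 426 of 12640 genes were higher and 575 lower. Counts given below from these fits are to be read beside these numbers, not beside the shares with all libraries. Prss57 and Ctsc rose in every fit that left out a library, the largest adjusted p being 0.0316 and 0.0481.

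In single cells these granule genes were not confined to the members. Of the 9 that rose, Ctsg and Srgn had their highest pooled level in the members, Ctsc in Ly6c2/Ccr2 cells and the other 6 in calprotectin-high cells. For Srgn this held only with the Gata2 and eosinophil granule members included. Genes of those calprotectin-high cells also rose in EKLF-/- libraries, with Fcnb at 1.59 (adjusted p = 0.00792), Camp at 1.23 (adjusted p = 0.0172), S100a8 at 1.2 (adjusted p = 0.0207) and S100a9 at 1.06 (adjusted p = 0.0244), whereas Ltf had 0.19 (adjusted p = 0.522). In all, 5 of 17 later granule genes rose, beside 9.72% of all genes, and Mmp8 fell, beside 10.6% (list median 0.41). Without EKLF+/+ replicate 1, 2 or 3 the number that rose was 2, 2 and 1, and without EKLF-/- replicate 3 it was 2. Which of the classes the bulk difference came from was not tested.

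Of 12 progenitor genes some rose and some fell. Ms4a3 rose, with 1250, 2937 and 1481 normalized counts in EKLF-/- against 765.2, 596.6 and 700 in EKLF+/+ libraries (1.46 ± 0.30, adjusted p = 0.0129), as did Nkg7 (1.25), Clec12a (1.10), an inhibitory lectin, and the Fc receptor Fcgr3 (0.94). Flt3, the receptor of early multipotent progenitors, fell without overlap, from 373, 450.5 and 383.4 in EKLF+/+ to 140.7, 132 and 191.1 in EKLF-/- libraries (−1.38 ± 0.17, adjusted p = 0.00151). Kit fell as well, with 1395, 1121 and 1421 against 2524, 2766 and 2223 (−0.93 ± 0.13, adjusted p = 0.00267), as did Cd93 (−0.95, adjusted p = 0.0089). Cd34 had 2483, 2495 and 2392 against 2465, 2917 and 2530, overlapping groups (−0.10 ± 0.10, adjusted p = 0.484). Of the 12 genes 4 rose and 3 fell, beside 9.72% and 10.6% of all genes, with a median of 0.05. Flt3, Kit and Cd93 fell in every fit that left out a library, the largest adjusted p being 0.0106, 0.0169 and 0.0274, whereas 2, 2 and 1 genes rose without EKLF+/+ replicate 1, 2 or 3. Flt3 and Kit had little signal in the members themselves, at 0.0530 and 0.371 per 10000.

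Factors of the granulocyte branch were among those that rose. Cebpe had 830.8, 1656 and 1007 normalized counts in EKLF-/- libraries against 519.3, 658 and 394.1 in EKLF+/+ libraries (1.15 ± 0.27, adjusted p = 0.0227), and Gfi1 (1.15), Cebpd (0.94), Spi1 (0.86) and Id2 (0.71) also rose. Irf8 had 1060, 1341 and 1205 against 1026, 1209 and 986.4, with overlap (0.16 ± 0.13, adjusted p = 0.362), and Klf4 had 0.10 (adjusted p = 0.635). Myb (−0.40) and Zeb2 (−0.57) fell, so that 5 of 16 factors rose, beside 9.72% of all genes, and 2 fell, beside 10.6% (median 0.13). Without EKLF+/+ replicate 1, 2 or 3, and without EKLF-/- replicate 3, the number that rose was 0, 1, 0 and 1, and the number that fell 0, 0, 1 and 0. Over all genes 346, 417, 370 and 426 were higher in these fits, and 576, 609, 632 and 575 lower. The largest adjusted p-values with 1 library left out were 0.114 for Myb and 0.0915 for Zeb2 (edgeR quasi-likelihood test). Whether Cebpe and Irf8 differed from each other was not tested.

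Hmga2, high in the members among single cells, fell without overlap, with 956.2, 633.1 and 967.3 normalized counts in EKLF-/- against 1682, 2118 and 1649 in EKLF+/+ libraries (−1.09 ± 0.18, adjusted p = 0.00544). Of the 20 genes with the highest ratio in the members, 9 rose (Ms4a3, Ctsg, Nkg7, Serpinb1a, Alas1, Srgn, B4galnt1, Hdc and Glipr1), and Hmga2 and Myb fell, with a median of 0.61. That is to be read beside 9.72% and 10.6% of all genes. Ms4a3, Nkg7, Serpinb1a, Alas1 and B4galnt1 were at higher pooled levels in calprotectin-high cells than in the members. Without EKLF+/+ replicate 1, 2 or 3 the number that rose was 2, 0 and 0, and without EKLF-/- replicate 3 it was 4. Cytokine receptors went both ways, as Csf2ra (0.77), Ifngr1 and Ifngr2 rose and Flt3 and Kit fell. None of the receptors rose without EKLF+/+ replicate 1, 2 or 3 or without EKLF-/- replicate 3.

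Genes of the Gata2 and eosinophil granule members gave mixed values. Prg2 had 4573, 7070 and 5249 normalized counts in EKLF-/- against 2149, 3412 and 1652 in EKLF+/+ libraries, without overlap (1.23 ± 0.27, adjusted p = 0.0173), and Prg3 also rose (1.35, adjusted p = 0.0186). Without EKLF+/+ replicate 1 or 3 neither passed. Epx, the other gene of the eosinophil list, did not pass with all libraries, and had 0.57 to 1.21 with 1 library left out. Prss34, a basophil protease, rose from 18, 27.7 and 33.4 to 57.7, 117 and 85 (1.70 ± 0.33, adjusted p = 0.0107), and Hdc rose by 0.54. Hdc did not pass without EKLF+/+ replicate 3 (adjusted p = 0.122). Gata2 had −0.16 (adjusted p = 0.458), Cpa3 0.11 (adjusted p = 0.707), Ms4a2 −0.07 (adjusted p = 0.869) and Ifitm1 0.75 (adjusted p = 0.0837). Mcpt8 did not pass either, with 0.39 to 1.38 when 1 library was left out.

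The counts of other lists in EKLF-/- libraries are to be read beside 9.72% of all genes higher and 10.6% lower, and several lie near those shares. Of these lists, folding genes had a median of 0.31, with 4 of 16 higher (Sdf2l1, Erp29, Pdia3 and Hsp90b1), and Calr had 0.23 (adjusted p = 0.306). Monocyte genes had 2 of 12 higher, Ctss and Ccr2, and of the 6 oxidase genes Cyba (0.95) and Ncf1 rose. Of 17 S phase genes Ung rose and 4 fell, with Rrm2 at −0.70, and of 18 G2 and M phase genes 3 rose. Ctss lost the call without EKLF+/+ replicate 1, 2 or 3 (adjusted p = 0.114 at most) and without EKLF-/- replicate 3, which left Ccr2 as the monocyte gene that rose. Without EKLF+/+ replicate 1, 2 or 3, no folding gene rose, 0, 1 and 0 oxidase genes rose, 0, 1 and 1 of the G2 and M phase genes rose, and 0, 3 and 0 S phase genes fell. Without EKLF-/- replicate 3, 1 folding gene, no oxidase gene and 1 G2 and M phase gene rose, and no S phase gene fell.

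The neighbours of Elane and Prtn3 were also read. Within 100 kb lie 15 other protein-coding genes, 10 of which were tested in EKLF-/- libraries, and 4 rose, beside 9.72% of all genes, with a median of 0.53 over the 10. Besides Prss57, Fstl3, a follistatin-like protein gene, rose by 1.6 (adjusted p = 0.0129), and Palm had 0.57 (adjusted p = 0.0546). Fstl3 was at 0.0159 per 10000 in the members. It overlaps Prss57 on the opposite strand, and without a known strand setting reads of this pair cannot be told apart. Kiss1r was among the 4 but had under 10 counts in every EKLF+/+ library, and it overlaps another of the 4 on the opposite strand, with the same limit. Plppr3 overlaps Prtn3 by 159 bases on the opposite strand and had no row in the table of these libraries. The number that rose was 2, 2 and 1 without EKLF+/+ replicate 1, 2 or 3, and 2 without EKLF-/- replicate 3.

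Markers of other cell types moved in the same comparison. Of 7 erythroid markers 4 fell (median −0.65), as did 3 of 12 macrophage markers (Timd4, Cd5l and Mrc1), 3 of 4 endothelial, 3 of 4 mesenchymal and 3 of 6 stem cell markers, beside 10.6% of all genes lower. EKLF+/+ libraries had 27.3 to 29.0% of reads on genes and EKLF-/- libraries 31.1 to 32.8%. The part of these shifts in the granule gene difference was not tested.

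**Figure D4:**
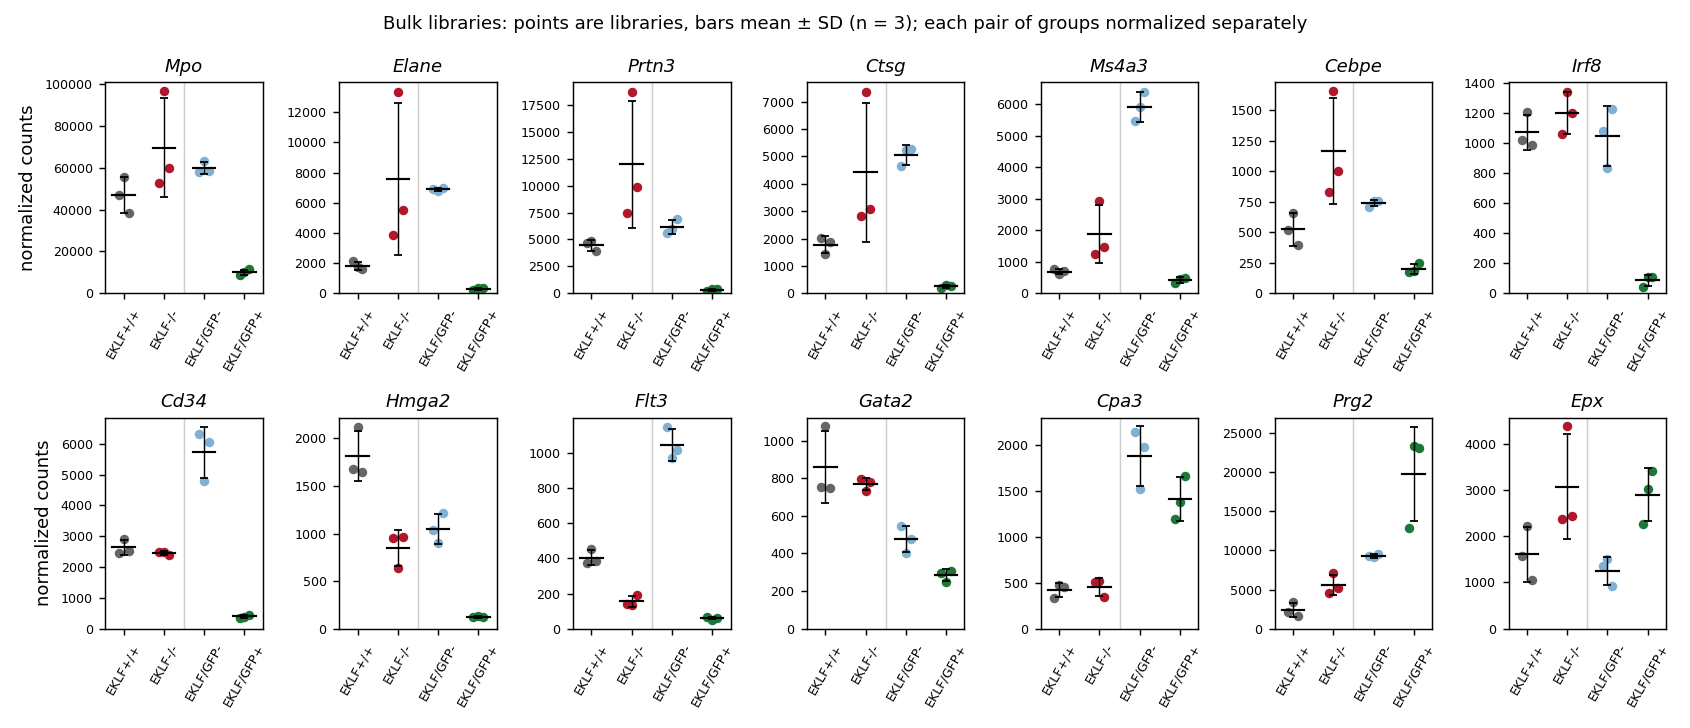
Normalized counts in each bulk library for 14 genes, with the mean ± SD of 3 libraries per group, each pair of groups normalized separately. For Elane, Prtn3 and Ctsg the EKLF-/- libraries lie above EKLF+/+, with replicate 2 highest, and the EKLF/GFP+ libraries lie far under EKLF/GFP-.

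The reporter libraries answer how the members' genes are divided between F4/80+ cells with and without EKLF promoter activity. Of 14248 genes tested 44.7% were called, 18.9% higher and 25.8% lower in EKLF/GFP+ than in EKLF/GFP- libraries. RNA was extracted with an Agilent Nanoprep kit in the EKLF/GFP+ group and with Trizol in the EKLF/GFP- group, so kit and reporter cannot be told apart. Klf1 was at 2619, 2349 and 2272 against 900.3, 1191 and 745.4 normalized counts (1.35, adjusted p = 0.000316), in the direction of the sort.

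Granule genes were lower in EKLF/GFP+ than in EKLF/GFP- cells. Elane had 235.1, 350.9 and 327.3 normalized counts against 6900, 6770 and 6996 in EKLF/GFP- libraries, far apart (−4.50 ± 0.15, n = 3 each, adjusted p = 5.2e-06). Ctsg had 179.4, 286.1 and 281.7 against 4646, 5237 and 5288 (−4.35 ± 0.18, adjusted p = 6.26e-06), and Prtn3 had 211.5, 368.1 and 358.3 against 5592, 6016 and 6882 (−4.30 ± 0.22, adjusted p = 9.68e-06). For Mpo the gap was smaller, with 8948, 9957 and 11458 against 57905, 63328 and 58388 (−2.56 ± 0.11, adjusted p = 6.99e-06). All 11 granule genes tested fell, beside 25.8% of all genes lower, with a median of −2.56 against −0.01 over all genes. Cd63 had the least change, −0.81 (adjusted p = 0.00319).

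The 12 progenitor genes all fell as well, beside 25.8% of all genes (median −2.58). Flt3 had 64.2, 51.8 and 61.1 normalized counts against 1144, 968.7 and 1016 (−4.14 ± 0.13, adjusted p = 3.99e-06), Cd34 had 362.6, 385.4 and 441.2 against 6303, 4785 and 6068 (−3.85 ± 0.14, adjusted p = 5.4e-06), and Kit had the least change, −0.52 (adjusted p = 0.0091). Ly6a, counted among the 12, had under 10 counts in every EKLF/GFP+ library. With limma on the authors' normalized counts Nkg7 lost the call with 1 or 10 added and Kit with 1 added. Factors of both branches were lower. Irf8 had 45.3, 109 and 109.8 against 1085, 833 and 1229 (−3.58 ± 0.31, adjusted p = 6.47e-05), and Cebpe 170.9, 181.4 and 248.5 against 710.3, 754.3 and 756.4 (−1.89 ± 0.15, adjusted p = 4.25e-05). Gfi1 fell by 3.94 on the log2 scale and Klf4 by 4.46, and Klf4 and Hoxa9, with under 10 counts in every EKLF/GFP+ library, passed the filter through EKLF/GFP- alone. Of the 16 factors 15 fell, and Nfe2, a factor of red cells and platelets, rose by 0.40 (adjusted p = 0.0186).

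Of the 20 genes with the highest ratio in the members, 19 fell (median −2.51), among them Hmga2 (−3.06), Ms4a3 (−3.84), Emb (−3.48), Gria3 (−2.84) and Alas1 (−2.41). Beside 25.8% of all genes lower, all 18 later granule genes, 11 of 12 monocyte genes and all 6 oxidase genes fell too, with medians of −3.36, −2.64 and −1.94, where Klf4 and S100a4 of the monocyte list had under 10 counts in every EKLF/GFP+ library. Calr fell by 1.09 on the log2 scale and 14 of 16 folding genes were lower (median −0.89). Of the 13 receptors 12 fell, with Csf3r at −4.00, and Epor, the erythropoietin receptor, rose by 1.62 (adjusted p = 5.39e-05). Csf2ra, among the 12, turned to 1.09 and 0.21 with limma on the authors' normalized counts plus 1 and plus 10, where it is listed at 0 in 3 libraries. By contrast 12 of 17 S phase and 13 of 18 G2 and M phase genes rose, beside 18.9% of all genes, with medians of 0.33 and 0.35.

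Genes of the Gata2 and eosinophil granule members had other values. Cpa3 had 1189, 1375 and 1663 normalized counts in EKLF/GFP+ and 2140, 1514 and 1970 in EKLF/GFP- libraries, overlapping groups (−0.41 ± 0.16, adjusted p = 0.0694). Ms4a2 had −0.13 (adjusted p = 0.705), Mcpt8 0.13 (adjusted p = 0.689) and Prss34 0.19 (adjusted p = 0.577), and of 6 mast cell and basophil markers Hdc fell (−1.09, adjusted p = 0.000685), beside 25.8% of all genes. Gata2 fell from 544.7, 405.1 and 475.9 to 296.5, 247.2 and 306.5 (−0.74 ± 0.14, adjusted p = 0.00361). Hdc and Gata2 lost the call when limma was run on the authors' normalized counts. All 3 eosinophil markers rose, beside 18.9% of all genes. Epx had 2274, 3027 and 3408 against 1357, 1498 and 915.5 (1.21 ± 0.21, adjusted p = 0.00193), Prg2 had 12883, 23288 and 23146 against 9292, 9098 and 9562 (1.09 ± 0.21, adjusted p = 0.00353), and Prg3 rose by 0.94 (adjusted p = 0.00594).

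Of the neighbours of Elane and Prtn3, 9 were tested and 4 fell, beside 25.8% of all genes, with a median of −0.20 over the 9. Tmem259 rose by 0.29 (adjusted p = 0.0393), a call that was lost without EKLF/GFP+ replicate 1 or 3 and without each of the EKLF/GFP- libraries. Plppr3 had 35.9, 44.3 and 43.5 normalized counts against 1169, 1065 and 1228 (−4.81 ± 0.13, adjusted p = 3.49e-06), Palm fell by 2.46 and Arid3a by 1.81 on the log2 scale. In single cells these neighbours were also in the members, Plppr3 at 0.321 per 10000 and Palm at 0.286, against 0.0175 and 0.0301 in remaining cells. Since Plppr3 overlaps Prtn3 on the other strand, its values are uncertain unless the mapping used strand. Markers of other cell types moved too. All 9 erythroid and 6 megakaryocyte markers rose, beside 18.9% of all genes (erythroid median 1.32), while all 6 stem cell, 4 lymphoid and 4 dendritic cell markers tested fell. Mecom and Procr of the stem cell list, Cd79a of the lymphoid list and Siglech and Cd209a of the dendritic cell list had under 10 counts in every EKLF/GFP+ library and passed the filter through EKLF/GFP- alone. The part of these markers in the differences was not tested.

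**Figure D5:**
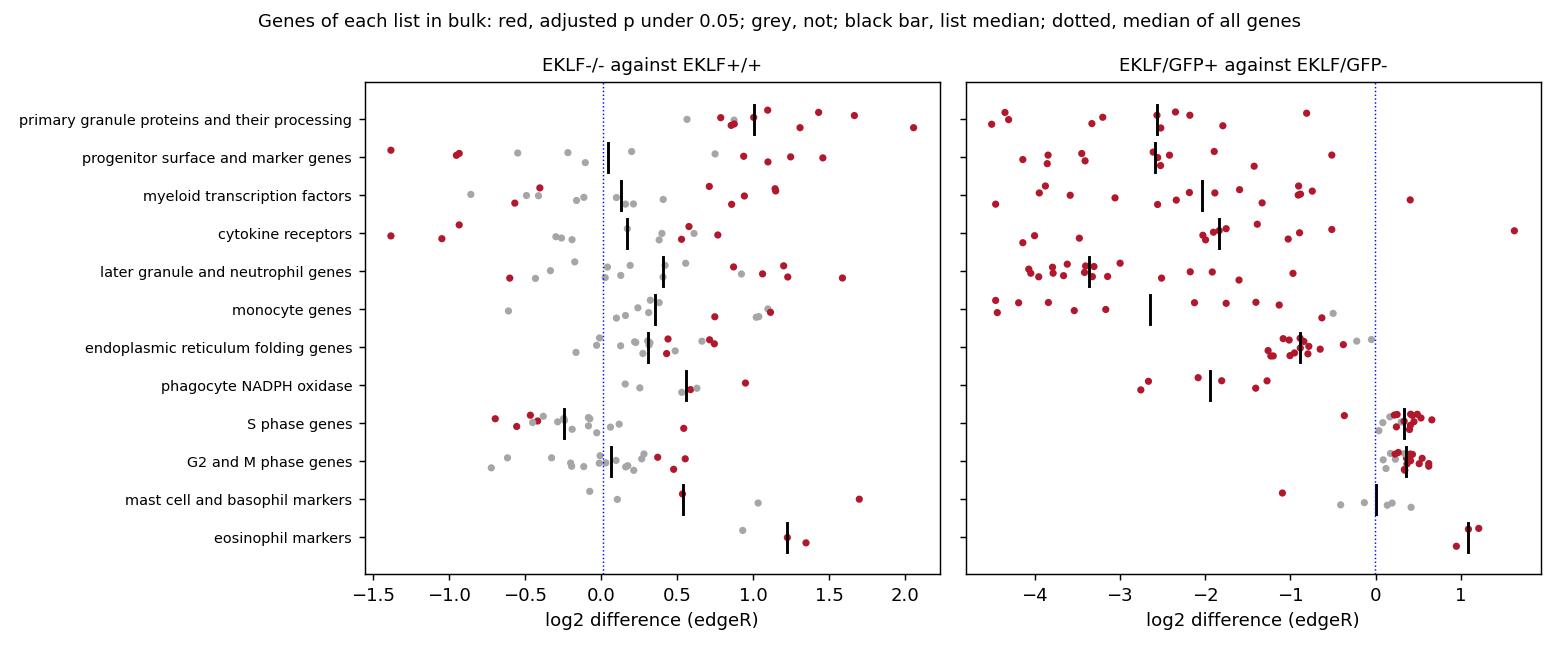
Log2 difference of each tested gene of 12 lists in EKLF-/- against EKLF+/+ and in EKLF/GFP+ against EKLF/GFP- libraries, with red points at an adjusted p under 0.05, a black bar at the list median and a dotted line at the median of all genes. The granule list sits above the line in EKLF-/- (median 1.01) and below it in EKLF/GFP+ libraries (median −2.56), whereas the eosinophil list is above it in both (1.23 and 1.09).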

How the data were processed

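Single-cell counts were the estimated molecule counts that the authors deposited from alevin. The EKLF+/+ and EKLF-/- files held raw read counts per gene, made by the authors with STAR on mm10 and HTSeq, and the reporter files held estimated counts for each transcript that the authors obtained from Salmon on GRCm38. The strand setting of the counting is not given in the sources used here. In the file of EKLF+/+ replicate 1, 5 columns of per-sample values were not used. The authors' deposited normalized counts, a signal from tximport and DESeq2, entered only alternatives with limma, on log2 of the value plus 1 or 10. A deposited table of log2 of the raw count plus 1, with the authors' own fold columns, was not used.

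Members and lists were chosen with earlier results of these data known. Pooled levels were 10000 times summed counts over summed totals. Older symbols were translated for 2286 of 23337 gene rows, and 115977 of 116546 Salmon transcripts were joined to 35454 genes and rounded. A gene needed 10 counts or more in 3 or more libraries. Genes that passed were scaled by TMM and tested by edgeR's two-sided quasi-likelihood test with Benjamini-Hochberg adjustment over all genes (threshold 0.05), each comparison fitted alone and without a block. On simulated EKLF-/- data (12619 genes, 195 of them changed), 94.3% of 4-fold and 74.4% of 2-fold changes were found, and 5.68% of calls were false. For the reporter comparison (14002 genes, 195 changed) these were 97.2%, 56.8% and 5.52%. Far more genes were called in the real data, and no simulated library was made to deviate, so these rates hold for the simulated setting only.

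Named genes were the markers, the rule genes, up to 5 genes per list with the highest pooled level, listed genes without a count, the 20 highest ratios, and in bulk the largest called rise and fall of each list. Genes named outside this rule were chosen after their values were seen. Tools were Python 3.11.15, numpy 2.4.6, scipy 1.17.1, pandas 2.3.3, matplotlib 3.10.9, R 4.3.3, edgeR 4.0.16, limma 3.58.1 and DESeq2 1.42.0. Alternatives were other member limits, DESeq2, its size factors, no filter on low counts, a replicate block and leaving out each library.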

Additional observations from a re-analysis of the deposited data

How the results depend on the processing

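A limit of 10 or 40 per 10000 for the summed Mpo, Elane and Prtn3 gave 149 or 61 members in place of 95. The other limits gave 82 to 95, the lowest without the Gata2 and eosinophil granule members, an alternative chosen after seeing the data. Leaving out each library gave 922 to 3619 genes called in EKLF-/- against EKLF+/+ libraries (2595 with all), and 2 to 11 granule genes that rose (9 with all). For the reporter libraries it gave 4738 to 6240 (6372 with all), and 11 granule genes fell each time. Of 39 called genes that were followed through these fits in EKLF-/- libraries, 28 lost the call in at least 1 such fit and none reversed. Of 57 followed in reporter libraries Ifitm1 lost it. The 39 and 57 do not hold every gene named above. Tmem259, not among the 57, lost its reporter call in several of these fits.

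With the replicate number as a block, 1901 and 5789 genes were called and 8 and 11 granule genes. Of the genes followed, Ctsg, Hsp90b1, Myb and Zeb2 lost the call in EKLF-/- libraries. Tmem259 lost it in reporter libraries. The methods do not state whether the numbers pair the libraries, and no pairing was seen. Same-number deviations correlated at −0.00542, 0.0034 and 0.0561 in EKLF-/- and EKLF+/+ libraries and 0.032, −0.0888 and 0.0266 in reporter libraries. Not every library correlated best with its own number. With 3 libraries per group such values cannot exclude a pairing. DESeq2 called 3230 and 6514 genes, its size factors in edgeR 2580 and 6543, and no filter 2845 and 6432, with 9 or 10 granule genes higher in EKLF-/- and 11 lower in EKLF/GFP+ libraries. Limma called 4825 and 4846 genes with 1 and 10 added, and Gata2, Hdc, Ifitm1 and Nkg7 lost the call with both, Kit with 1 added.

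Some genes without a call changed sign when a library was left out. In EKLF-/- libraries Gata2 ranged from −0.28 to 0.017 (log2), Cpa3 from −0.043 to 0.28, Ms4a2 from −0.41 to 0.14 and Adgre1 from −0.050 to 0.21. In reporter libraries Ms4a2 ranged from −0.34 to 0.11, Mcpt8 from −0.093 to 0.30 and Adgre1 from −0.10 to 0.57. Csf2ra, lower in EKLF/GFP+ libraries by edgeR, had 1.09 and 0.21 by limma with 1 and 10 added, where the authors' table lists it at 0 in 3 libraries.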

Other observations

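H2-Aa, a class II antigen gene of dendritic cells, was at 18.1 per 10000 in 1 of the 95 members and at 0.171 to 0.283 in the 3 others with a count. The dendritic cell list was at 0.318 per 10000 in pooled members against 0.705 in Ly6c2/Ccr2 cells. Hepatoblast markers had a median of 1.12 and reached 68.2 in the highest member, against 48.2 in pooled remaining cells. Mesenchymal markers were at 0.00265, with no count of Col1a1, Dcn or Pdgfra, and lymphoid markers at 0.0477, with no count of Igll1, Cd3e, Rag1 or Dntt. Stem cell markers were at 0.290 against 0.635 in remaining cells, with no count of Mecom.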
